A study of Mus musculus with 4 samples.

Results

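Creatine and adenylate kinases move high-energy phosphate between the places in a cell that make ATP and those that spend it. The 7 genes described here were taken from a fixed list of symbols, Ckm, Ckb, Ckmt1, Ckmt2, Gamt, Ak1 and Ak3, and all 7 were present among the 12408 genes of the 4 libraries. Each library was made from heart RNA, 1 library for each genotype and state, from C57BL/6 mice aged 3 months, and the number of animals behind a library is not given in the labels. CT mice carried WW45 flox/flox, with no Cre. The cKO mice carried WW45 flox/flox-alpha-MHC-CRE, in which the alpha-myosin heavy chain promoter drives Cre in cardiomyocytes, so other heart cells keep WW45, the Hippo pathway scaffold listed under the symbol Sav1. Mice of each genotype were studied at baseline and after TAC, where TAC is 4 weeks of transverse aortic constriction, a narrowing of the aorta that raises the pressure load on the left ventricle. All 4 groups carried the floxed alleles, no group held Cre alone, and none was labelled sham-operated.

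As background, creatine kinases transfer phosphate between ATP and creatine. Cytosolic enzymes are built from the M subunit (Ckm, the adult muscle form) and the B subunit (Ckb, abundant in brain, smooth muscle and the fetal heart). Mitochondrial enzymes sit in the intermembrane space and are made from Ckmt2, the sarcomeric form, or Ckmt1, the form of most other tissues. Gamt encodes the methyltransferase of the last step of creatine synthesis, which takes place mainly outside the heart. Ak1 is the cytosolic adenylate kinase of muscle, which turns ADP into ATP and AMP, and Ak3 works in the mitochondrial matrix with GTP and AMP. A larger share of Ckb in loaded or failing hearts has been described in other work.

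Because the isoforms are related, their coding sequences are shown first, as they decide how easily a read can be assigned to 1 of them. Ckm and Ckb were identical at 75.9% of 1143 aligned coding bases, and Ckmt1 and Ckmt2 at 71.6% of 1253 bases. Across the cytosolic and mitochondrial genes the identity was 64.5% to 67.3%. The sequences below are the 60 coding bases from position 88 to 147 of the Ckm coding sequence (GENCODE M21, mm10), aligned in the other 3 genes. They begin with the longest run that Ckm and Ckb share, and capitals mark bases that differ from Ckm.
Ckm: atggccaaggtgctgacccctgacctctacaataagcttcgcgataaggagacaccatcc
Ckb: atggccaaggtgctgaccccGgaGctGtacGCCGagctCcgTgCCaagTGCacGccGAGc
Ckmt1: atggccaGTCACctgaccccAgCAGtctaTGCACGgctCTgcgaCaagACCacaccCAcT
Ckmt2: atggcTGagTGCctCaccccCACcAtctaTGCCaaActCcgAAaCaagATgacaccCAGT
Ckb differed from Ckm at 18 of these 60 bases, Ckmt1 at 24 and Ckmt2 at 25. The longest run without a difference was 20 bases between Ckm and Ckb and 39 bases between Ckmt1 and Ckmt2. The latter is given as the longest coding stretch that the mitochondrial isoforms share. Only a read lying wholly within such a stretch would match both, and untranslated bases were not compared.
Shared Ckmt1 and Ckmt2 run: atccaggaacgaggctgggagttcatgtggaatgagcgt
All 4 creatine kinases had whole reads in every library. Among the 7 genes, Ak1 alone had counts that were not whole numbers.

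The 300-base promoter windows of Ckm, Ckb and Ckmt1 (RefSeq, GRCm38.p6, which is mm10) are shown because the adult muscle isoform was lower, and the other 2 higher, in the library labelled cKO baseline than in CT baseline. Each runs 5′ to 3′ from 250 bases before the annotated start, and capitals mark matches to the motifs searched. Ckm lies at chr7:19410844-19411143 on the plus strand, Ckb at chr12:111672289-111672588 on the minus strand, and Ckmt1, first of 2 windows, at chr2:121357526-121357825 on the plus strand.
Ckm: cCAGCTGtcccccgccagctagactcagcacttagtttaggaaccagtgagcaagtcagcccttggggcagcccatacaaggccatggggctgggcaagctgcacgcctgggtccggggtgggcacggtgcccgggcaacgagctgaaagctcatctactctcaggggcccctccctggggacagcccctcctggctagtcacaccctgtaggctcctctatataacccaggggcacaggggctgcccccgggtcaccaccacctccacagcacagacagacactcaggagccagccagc
Ckb: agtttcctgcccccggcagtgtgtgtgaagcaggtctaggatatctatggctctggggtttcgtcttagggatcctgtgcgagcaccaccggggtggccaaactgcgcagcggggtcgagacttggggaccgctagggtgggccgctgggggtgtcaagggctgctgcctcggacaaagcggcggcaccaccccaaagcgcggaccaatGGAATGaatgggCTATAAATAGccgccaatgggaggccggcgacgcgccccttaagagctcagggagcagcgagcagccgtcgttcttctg
Ckmt1: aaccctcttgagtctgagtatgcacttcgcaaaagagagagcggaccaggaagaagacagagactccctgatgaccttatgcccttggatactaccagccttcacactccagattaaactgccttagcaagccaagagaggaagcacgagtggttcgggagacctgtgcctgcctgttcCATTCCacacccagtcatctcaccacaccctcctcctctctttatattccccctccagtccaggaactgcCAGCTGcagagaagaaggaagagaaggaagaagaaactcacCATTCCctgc
The motifs were searched on both strands in the windows of all 7 genes, 11 windows in all. The MCAT element CATTCC, bound by TEAD factors, matched in Ckb from -41 to -36 (base 0 being the start, on the opposite strand) and in the first window of Ckmt1 from -71 to -66 and from 40 to 45. It matched in no window of the other 5 genes. Of all 32851 mouse windows 14.7% hold it. Counting a match in any window of a gene, so do 14.7% of the 9522 genes of the libraries that have a window. The muscle E-box CAGCTG, bound by basic helix-loop-helix factors, matched in Ckm, Ckmt1, Ckmt2, Ak1 and Ak3, against 16.3% of all windows and 18.3% of those genes. A MEF2 box matched in Ckb from -29 to -20, on the letters CTATAAATAG, and in a window of Ak1. It is held by 3.19% of all windows and 2.38% of those genes. A TATA box was not among the motifs searched, so its overlap with this match was not assessed. The ERR element TCAAGGTCA and the CArG box matched in none of the 11 windows, against 0.423% and 1.63% of all windows. A match describes letters only, and binding was not measured. The windows shown were picked by the direction of their genes in these data, and a link between motifs and levels was not tested.

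The libraries held 1587840 to 2796547 reads over the 12408 genes, and the median gene had 30 to 48 reads. Levels are given as CPM, read counts scaled to a common library size, with 95% intervals that cover counting error only. Sav1, the targeted gene, stood at 49.3 CPM in CT baseline, 35.4 in the CT TAC library, 39.8 in cKO baseline and 46.2 in the library labelled cKO TAC. The TAC library of the cKO group was therefore above that of CT, on 85 reads against 71, with no interval computed. Gene-level counts cannot show whether the floxed exons were removed. Every genotype direction below is one between libraries as labelled. All 10 cardiomyocyte markers were measured, none was at 0, and their summed level ran from 100159 CPM in the library labelled cKO TAC to 129736 CPM in CT baseline. Without Myh6, the most abundant of the list, the sum was 71833 CPM in CT baseline and 77455 in CT TAC, the highest. It was then 70167 CPM in cKO baseline and 66921 in the library labelled cKO TAC. Of 9 skeletal muscle markers 7 were measured, with a summed level of 10.7 to 17.4 CPM in the 4 libraries. Mylpf was at 0 in CT baseline, Myh1 in cKO baseline and Atp2a1 in CT TAC. In RNA from bulk heart tissue, fewer cells of a type and less RNA per cell cannot be told apart.

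**Figure D1:**
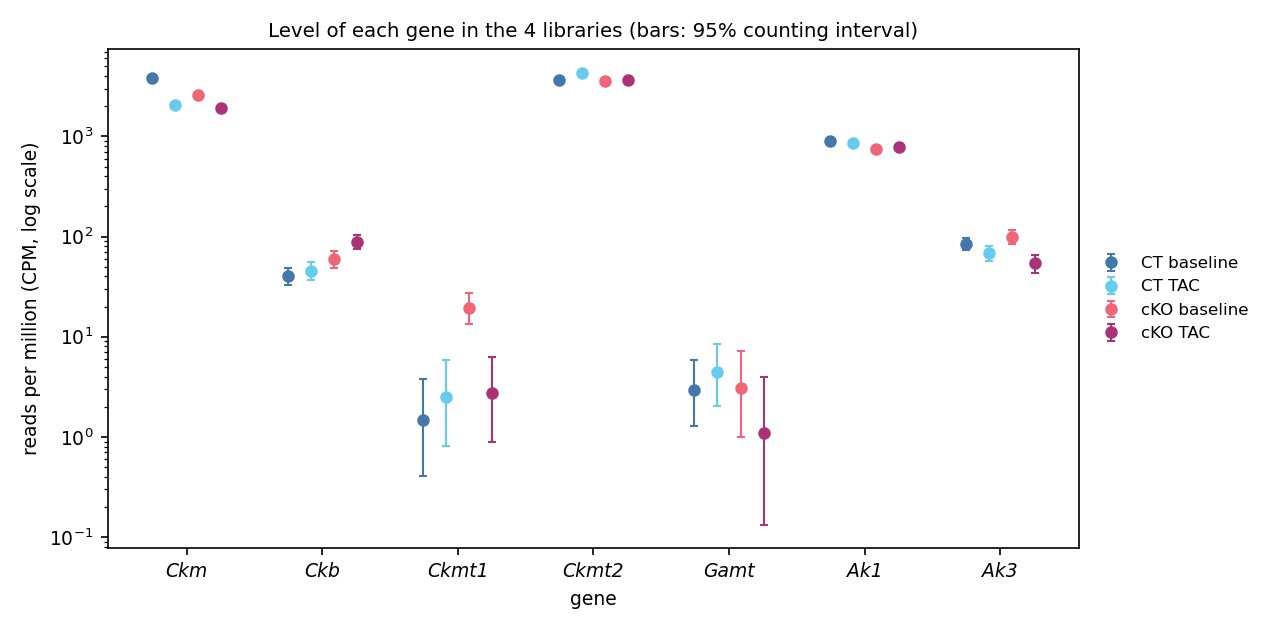
Level of each gene in the 4 libraries, in CPM on a log axis, with points for the libraries and bars for the 95% counting interval. Ckm and Ckmt2 sit at 1922 CPM or more in every library, and Ckmt1 stands at 19.6 CPM in cKO baseline against 2.72 CPM or less elsewhere.

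Ckm, the muscle creatine kinase (chr7:19404776-19422841, plus strand, mm10), was highest in CT baseline and lower in the other 3 libraries. Its level was 3808 CPM (10272 reads) in CT baseline, 2060 CPM (4127 reads) in the CT TAC library, 2597 CPM (4245 reads) in cKO baseline and 1922 CPM (3534 reads) in the library labelled cKO TAC. No 2 of the counting intervals overlapped, the closest being 1998 to 2124 CPM in CT TAC and 1859 to 1986 CPM in the library labelled cKO TAC. Ckm ranked number 25 of 12408 genes by CPM in CT baseline and number 54 in the library labelled cKO TAC.

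Between CT TAC and CT baseline, Ckm was 0.541-fold (interval 0.522 to 0.561). The corresponding value between the libraries labelled cKO was 0.740-fold (0.708 to 0.774). At baseline the library labelled cKO had 0.682-fold the CT level (0.658 to 0.707), and under TAC 0.933-fold (0.892 to 0.976). A gene is said to pass in a pair where it differed at least 2-fold and the interval excluded 1, and Ckm was under 2-fold in all 4. Scaled to total reads, the log2 ratio under TAC was -0.00 in place of -0.10. In limma's fit over all 4 libraries the TAC difference of Ckm was -0.66 on the log2 scale (SE 0.18, unadjusted p = 0.00411, adjusted p = 0.107, 2 TAC against 2 baseline libraries), lower in both genotypes, and did not pass. The genotype difference was -0.33 (SE 0.18, adjusted p = 0.745).

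The median log2 ratio of the cardiomyocyte markers was nearer to 0 than that of Ckm in 3 of the 4 pairs. It was -0.10 for TAC in CT (Ckm -0.89), -0.10 for TAC in cKO (Ckm -0.43) and -0.09 for cKO against CT at baseline (Ckm -0.55). Under TAC it was -0.13, farther from 0 than the -0.10 of Ckm. Single markers ranged more widely. Chosen after their values were seen as the lowest of the list, Ryr2, the calcium release channel, stood at -0.80 in CT TAC against CT baseline. Pln, the inhibitor of the calcium pump, stood at -0.76. Actc1 (0.55), Mybpc3 (0.14) and Actn2 (0.02) were higher in that pair, and the remaining markers were lower. Fibroblast markers, 8 of 8 measured and none at 0, had a summed level of 1488 CPM in CT baseline, 5142 in the CT TAC library, 2510 in cKO baseline and 5602 in the library labelled cKO TAC. The sum was highest where Ckm was lowest, but without Dcn, the most abundant of the list, it was 416, 2858, 1119 and 2683 CPM, and the TAC libraries changed places. The part of fibroblast RNA in its level was not tested. An antisense gene, A930016O22Rik, covers 15.5% of the exon bases of Ckm, and whether reads were counted by strand is not given in the sources used here.

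Ckb, the brain-type subunit (chr12:111669361-111672338, minus strand), ran the other way and was highest in the library labelled cKO TAC. It had 40.03 CPM (interval 32.8 to 48.3, 108 reads) in CT baseline, 45.4 CPM (36.6 to 55.8, 91 reads) in the CT TAC library, 59.3 CPM (48.1 to 72.4, 97 reads) in cKO baseline and 88.1 CPM (75.1 to 102.8, 162 reads) in the library labelled cKO TAC. Neighbours in this order overlapped in their intervals except for the last step, and both libraries labelled cKO lay above both CT libraries. The library labelled cKO TAC had 1.94-fold the level of CT TAC (1.49 to 2.54), and cKO baseline 1.48-fold that of CT baseline (1.11 to 1.97). TAC against baseline gave 1.13-fold in CT (0.849 to 1.51) and 1.48-fold in the libraries labelled cKO (1.15 to 1.93).

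None of the 4 ratios of Ckb reached 2-fold. Scaled to total reads, the one of cKO against CT under TAC did. In limma the genotype difference of Ckb was 0.76 (log2, SE 0.23, unadjusted p = 0.00658, adjusted p = 0.497), higher in cKO in both states, and its TAC difference was 0.37 (SE 0.23, adjusted p = 0.453). Neither passed. Erythroid markers were also highest in the library labelled cKO TAC, with a summed level over 5 of 8 measured genes of 1643 CPM in CT baseline, 1100 in the CT TAC library, 2349 in cKO baseline and 3367 in cKO TAC (Slc4a1 was at 0 in CT TAC, and Hbb-bs and Hbb-b1 carried the same values). Schwann and neural markers, 5 of 8 measured, summed to 9.88, 10.98, 11.6 and 20.3 CPM in that order of libraries, with Sox10 at 0 in CT TAC, and to 6.18, 6.99, 7.95 and 7.79 CPM without Stmn2. Smooth muscle and mural markers, 8 of 8 measured and none at 0, summed to 2701, 2898, 3765 and 3964 CPM. Most of that was Des, which cardiomyocytes also express, and without it the sums were 568, 475, 927 and 802 CPM, an order unlike that of Ckb. The median log2 ratio of these 8 markers was 0.02 for cKO against CT at baseline and 0.01 under TAC. The part of these cells in the level of Ckb was not tested.

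Among 8093 genes with a mean of at least 10 CPM, the 3 whose profile over the 4 libraries lay nearest to that of Ckb were Hmha1, Alas2 and Erich1. Their Euclidean distances between centred log2 values were 0.07, 0.09 and 0.10. Alas2, the first enzyme of heme synthesis in red cell precursors, is 1 of the erythroid markers and had 23.7, 25.7, 34.3 and 54.4 CPM. With 4 points, many genes lie close by.

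**Figure D2:**
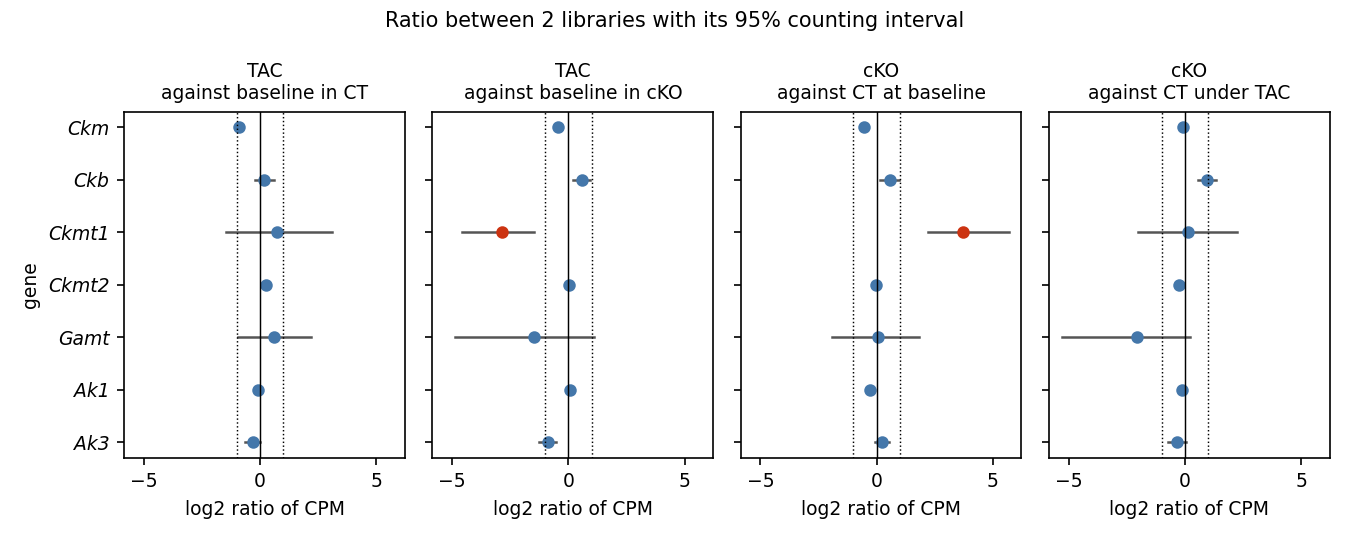
Log2 ratio of CPM between 2 libraries for each gene, with lines for the 95% counting interval, dotted lines at 2-fold and red points for genes at least 2-fold apart with an interval excluding 1. Ckmt1 is the only red point, lower in TAC within the libraries labelled cKO and higher in cKO at baseline.

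Ckmt2, the sarcomeric mitochondrial isoform (chr13:91853387-91876885, minus strand), held its level in all 4 libraries more closely than most genes. It had 3638 CPM (9815 reads) in CT baseline, 4303 CPM (8620 reads) in the CT TAC library, 3542 CPM (5790 reads) in cKO baseline and 3656 CPM (6722 reads) in the library labelled cKO TAC. CT TAC stood above the rest, and the intervals of the other 3 overlapped. Its deposited values spanned 0.28 on the log2 scale, against a median span of 0.80 over all genes, and 93.3% of genes spanned more. Counting error widens the span of genes with few reads, and most genes had far fewer than Ckmt2. Its span was not ranked among genes of like abundance. The CT TAC library had 1.18-fold the level of CT baseline (1.15 to 1.22), and between the TAC libraries Ckmt2 was lower in cKO, by -0.24 on the log2 scale (0.823-fold to 0.877-fold). In limma the TAC difference was 0.14 (SE 0.18, adjusted p = 0.734) and the genotype difference -0.14 (SE 0.18, adjusted p = 0.897). An antisense gene, 1700119I11Rik, covers 5.65% of its exon bases.

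Ckmt1, the other mitochondrial isoform (chr2:121357714-121363737, plus strand), was the gene of the 7 with the widest range. It had 4 reads in CT baseline (1.48 CPM, interval 0.404 to 3.80), 5 in the CT TAC library (2.50 CPM, 0.810 to 5.82), 32 in cKO baseline (19.6 CPM, 13.4 to 27.6) and 5 in the library labelled cKO TAC (2.72 CPM, 0.883 to 6.35). The cKO baseline library stood alone, and the other 3 overlapped. At baseline the ratio of cKO to CT was 13.2-fold (4.68 to 51.4) by CPM and 3.35 by the deposited log2 values, which 0.0484% of all genes exceeded. Between the libraries labelled cKO, TAC had 0.139-fold the baseline level (0.0423 to 0.359).

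These were the only ratios of the 7 genes past 2-fold with an interval excluding 1. At baseline 1 of 7 was past it, higher in cKO, against 5.06% of all genes (3.26% higher, 1.8% lower). Within cKO 1 of 7 was past it, lower under TAC, against 6.52% of all genes (3.69% higher, 2.83% lower). In CT 0 of 7 passed under TAC, against 10.7% (6.04% higher, 4.67% lower), and between the TAC libraries 0 of 7 passed, against 5.02% (2.93% higher, 2.09% lower). Ckmt1 rests on 1 library for its high level, and limma's genotype difference of 1.73 (SE 0.70, unadjusted p = 0.0303, adjusted p = 0.598) did not pass, nor did its TAC difference of -1.02 (SE 0.70, adjusted p = 0.503).

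Macrophage markers, 9 of 9 measured and none at 0, had a summed level of 434 CPM in CT baseline, 633 in the CT TAC library, 988 in cKO baseline and 878 in the library labelled cKO TAC. The sum was thus also highest in cKO baseline, but stayed near that level in cKO TAC. Cd68 (29.4 against 19.0 CPM) and C1qc (70.7 against 58.7 CPM) were higher in cKO TAC than in cKO baseline. The remaining macrophage markers were highest in cKO baseline, C1qb by a small margin (139.5 against 139.2 CPM). The genes nearest to Ckmt1 in profile were Lcp1, a leukocyte actin-bundling protein, Manf, a protein secreted under stress of the endoplasmic reticulum, and Siglec1, a macrophage receptor, at distances of 1.10, 1.14 and 1.21. Manf had 42.6, 48.9, 159.6 and 32.6 CPM, and Siglec1 5.19, 5.99, 21.4 and 9.79. Of 8 epithelial and mesothelial markers 2 were measured, Krt18 and Wt1, neither at 0. Krt18 had 2.22, 10.98, 8.56 and 31.0 CPM. Wt1 had 3.34, 0.998, 4.28 and 2.72 CPM on 9, 2, 7 and 5 reads. Its ratio of cKO to CT at baseline had an interval of 0.406-fold to 3.87-fold, so its order over the libraries is not settled. Of 6 adipocyte markers Cfd alone was measured, at 0.371, 2.99, 4.28 and 0 CPM on 1, 6, 7 and 0 reads. The part of any of these cells in the Ckmt1 level was not tested. Strc, on the other strand, shares 10 exon bases with Ckmt1.

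The make-up of the creatine kinase reads does not depend on how libraries are scaled. Ckm gave 50.9% of the reads of the 4 isoforms in CT baseline (95% binomial interval, Clopper-Pearson, 50.2% to 51.5%), 32.1% in the CT TAC library (31.3% to 32.9%), 41.8% in cKO baseline (40.8% to 42.7%) and 33.9% in the library labelled cKO TAC (33.0% to 34.8%). Ckmt2 took up most of the rest, with 48.6%, 67.1%, 57.0% and 64.5%. There were 0.956 reads of Ckmt2 for each read of Ckm in CT baseline and 2.09 in the CT TAC library, 1.36 in cKO baseline and 1.90 in the library labelled cKO TAC. Summed over the 4 isoforms, the level was 7487 CPM in CT baseline, 6411 in the CT TAC library, 6217 in cKO baseline and 5668 in the library labelled cKO TAC.

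Which of the 2 abundant isoforms stood higher in CT baseline depends on the length used. Per kilobase of coding sequence, Ckmt2 was at 0.869 times the level of Ckm there, and at 1.90, 1.24 and 1.73 times in the CT TAC library, cKO baseline and the library labelled cKO TAC. Per kilobase of the whole transcript, where GENCODE gives Ckm 2742 bases and Ckmt2 1486, the values were 1.76, 3.85, 2.52 and 3.51. On both scales the 3 other libraries lay above CT baseline. Per kilobase of coding sequence the order of levels in CT baseline was Ckm (3331 CPM per kilobase), Ckmt2 (2894), Ak1 (1442), Ak3 (124), Ckb (35.0), Gamt (3.92) and Ckmt1 (1.18). The distance between Ak3 and Ckb also depends on the length. Per kilobase of the whole transcript Ak1 was at 447, Ak3 at 30.1 and Ckb at 27.2 in CT baseline.

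Within the cytosolic pair, Ckb gave 1.04% of the reads of Ckb and Ckm in CT baseline (interval 0.854% to 1.25%), 2.16% in the CT TAC library (1.74% to 2.64%), 2.23% in cKO baseline (1.82% to 2.72%) and 4.38% in the library labelled cKO TAC (3.75% to 5.09%). CT TAC and cKO baseline overlapped, and both lay between the other libraries. In CT TAC the larger share came with a lower Ckm level, since the Ckb interval there overlapped that of CT baseline. Within the mitochondrial pair, Ckmt1 gave 0.550% of the reads in cKO baseline (0.376% to 0.775%) and 0.0407%, 0.0580% and 0.0743% in CT baseline, CT TAC and the library labelled cKO TAC.

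**Figure D3:**
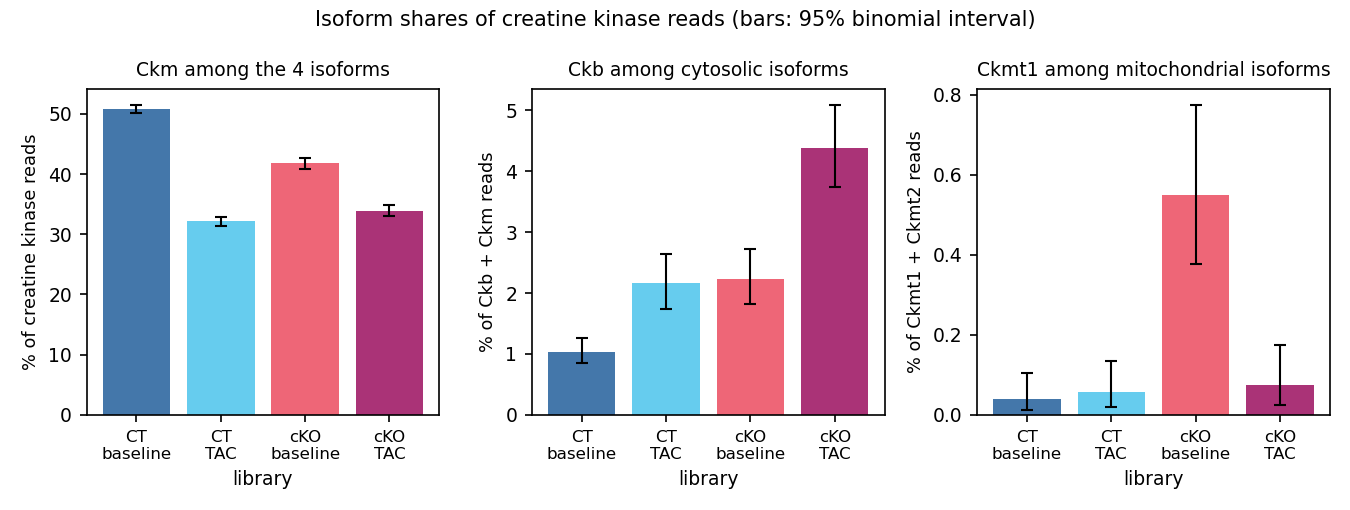
Shares of creatine kinase reads by library, in percent: Ckm among all 4 isoforms, Ckb among the cytosolic pair and Ckmt1 among the mitochondrial pair, with bars for the 95% binomial interval. The Ckm share is 50.9% in CT baseline and between 32.1% and 41.8% in the rest, and the Ckb share is largest in cKO TAC at 4.38%.

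Gamt, of creatine synthesis (chr10:80258151-80261012, minus strand), was near the limit of what this depth can show. It had 8 reads in CT baseline (2.97 CPM), 9 in the CT TAC library (4.49 CPM), 5 in cKO baseline (3.06 CPM) and 2 in the library labelled cKO TAC (1.09 CPM, interval 0.132 to 3.93). All 4 intervals overlapped. The lowest ratio, 0.242-fold between the TAC libraries, had an interval of 0.0255 to 1.17, so no difference was detectable at this depth. Limma gave a genotype difference of -0.81 (SE 0.61, adjusted p = 0.819). The genes nearest to Gamt in profile were Dffa, Bche and Grsf1, at distances of 0.22, 0.23 and 0.24. The other creatine supply genes are Gatm, the enzyme of the first step of creatine synthesis, and Slc6a8, the transporter by which heart cells take creatine up. Gatm had 4, 9, 4 and 8 reads in CT baseline, CT TAC, cKO baseline and the library labelled cKO TAC. Slc6a8 had 232.8, 153.4, 197.6 and 175.7 CPM, highest in CT baseline as Ckm was, with parts of reads in 1 library. Gatm was 1.34 higher (log2) in CT TAC than in CT baseline, with an interval of 0.846-fold to 13.5-fold, and neither gene passed in any pair.

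Ak1, the cytosolic adenylate kinase (chr2:32621758-32635058, plus strand), stayed in a narrow band. It had 908 CPM in CT baseline, 851 in the CT TAC library, 749 in cKO baseline and 791 in the library labelled cKO TAC. The span of 0.28 on the log2 scale was exceeded by 93.3% of genes, most of them with fewer reads than Ak1. CT baseline was highest, and its interval (873 to 945 CPM) overlapped that of CT TAC (811 to 892 CPM). The ratio of CT TAC to CT baseline was 0.937-fold, with an interval of 0.880 to 0.997 that excluded 1. Of the 4 ratios of Ak1, the one farthest from 1 was 0.824-fold for cKO against CT at baseline (0.769 to 0.883). Limma placed its genotype difference at -0.19 (SE 0.17, adjusted p = 0.837) and its TAC difference at -0.01 (SE 0.17, adjusted p = 0.987), the latter turning to 0.00 with the opposite sign when scaled to total reads.

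Ak3, the matrix enzyme (chr19:29020833-29047961, minus strand), was lower in TAC than in baseline libraries. It had 84.5 CPM in CT baseline (228 reads), 67.9 in the CT TAC library (136 reads), 99.7 in cKO baseline (163 reads) and 53.8 in the library labelled cKO TAC (99 reads). Both baseline libraries lay above both TAC libraries. TAC against baseline gave 0.803-fold in CT (0.645 to 0.998) and 0.540-fold between the libraries labelled cKO (0.416 to 0.697). In limma the TAC difference was -0.60 (SE 0.22, unadjusted p = 0.0209, adjusted p = 0.218) and did not pass, and the genotype difference was -0.05 (SE 0.22, adjusted p = 0.977). Cdc37l1, a gene on the opposite strand that overlaps 13.8% of the exon bases of Ak3, had 109.7, 95.2, 85.9 and 105.6 CPM, an order unlike that of Ak3. A further antisense gene, 1700018L02Rik, covers 9.07%.

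For TAC, limma called 0 of the 7 genes (adjusted p under 0.05) against 1.82% of all genes (1.3% rose, 0.524% fell). For the genotype it called 0 of 7 against 0.0242% of all genes, all of which rose. At an unadjusted p under 0.05 there were 2 of 7 for TAC, Ckm and Ak3, against 16.2% of all genes, and 2 of 7 for the genotype, Ckb and Ckmt1, against 7.77%. Adjusted p over the alternatives ran from 0.0550 to 0.435 for the TAC difference of Ckm. With a single library in each group, the fit has 1 residual degree of freedom and leans on variance shared across genes. The counting intervals, which leave out variation between mice, excluded a ratio of 1 for 4 of the 7 genes in each of the 4 pairs, against 31.6% of all genes for TAC in CT, 22.1% for TAC in cKO, 19.6% for the baseline libraries and 20.7% for the TAC libraries. Such intervals are narrowest for abundant genes, and 3 of the 7 are among the 163 highest genes in each library.

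Ratios of TAC to baseline can be set side by side for the genotypes, with no test. For Ckmt1 the difference between the cKO ratio and the CT ratio was -3.24 (log2 -2.64 against 0.60), as far from 0 as in 0.782% of all genes. Gamt differed by -1.70 on its few reads. These were the 2 of 7 genes with a difference of at least 1, against 19.9% of all genes. With 5 reads added to each gene, Ckmt1 alone remained past that size, and the share of all genes past it at that setting is not given. For Ckm (-0.43 against -0.89), Ckb (0.57 against 0.18), Ckmt2 (0.05 against 0.24), Ak1 (0.08 against -0.09) and Ak3 (-0.88 against -0.31) the differences were 0.57 or less in size.

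The other genes of energy transfer were followed through 6 lists, 43 measured genes in all. In CT, 1 passed as higher under TAC and 1 as lower, where 10.7% of all genes passed. The median log2 ratio of the 43 was 0.03 against 0.01 over all genes. Between the libraries labelled cKO none passed in either direction, where 6.52% of all genes did (median 0.04 against -0.00). At baseline 1 passed as higher in cKO and 1 as lower, where 5.06% of all genes passed (median -0.05 against 0.00). Under TAC 2 passed as higher in cKO and 1 as lower, where 5.02% of all genes passed (median -0.04 against 0.01). Limma called none of the 43 for TAC (10 at an unadjusted p under 0.05, where all genes had 16.2%) and none for the genotype (5 at an unadjusted p under 0.05, where all genes had 7.77%).

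Mitochondrial exchange of ATP, ADP and phosphate was the most abundant list, with 6 of 7 genes measured and none past 2-fold in any pair. Slc25a4, the adenine nucleotide translocator of heart and muscle, had 4881, 5203, 4099 and 4273 CPM in CT baseline, CT TAC, cKO baseline and the library labelled cKO TAC. Among nucleoside mono- and diphosphate kinases, all 13 measured, the most abundant was Nme2, which makes GTP and other triphosphates, with 493.7, 726.3, 474.0 and 665.1 CPM. Its relative Nme1 passed as higher in cKO against CT in both states (log2 1.01 and 1.12, 22 to 45 reads). Uck2, a uridine-cytidine kinase, was 1.13 higher and Cmpk2, a mitochondrial nucleotide kinase, 1.53 lower in CT TAC than in CT baseline (18 reads at baseline, 4 under TAC).

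Of the other adenylate kinases 3 of 7 were measured and none passed. Ak4, of the matrix, had 13.0, 7.49, 12.8 and 6.53 CPM in the same order of libraries, on 12 to 35 reads. Ak4, named after its values were seen, was lower in both TAC libraries than in both baseline libraries, as Ak3 was. In AMP handling, 10 of 11 genes were measured and the most abundant was Adk, adenosine kinase, at 179.2, 239.6, 148.3 and 195.0 CPM. Nt5c1a, which splits AMP to adenosine, was lower in cKO than in CT at baseline (-1.09, 9 reads against 33) and under TAC (-1.56, 5 reads against 18). Nt5e, the AMP-splitting enzyme of the cell surface, was higher in the library labelled cKO TAC than in CT TAC (1.17, 55 reads against 26). All 9 genes of AMP-activated protein kinase and its activators were measured and none passed, with Cab39, a partner of the activating kinase, the most abundant at 259.1, 203.7, 221.4 and 198.5 CPM.

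**Figure D4:**
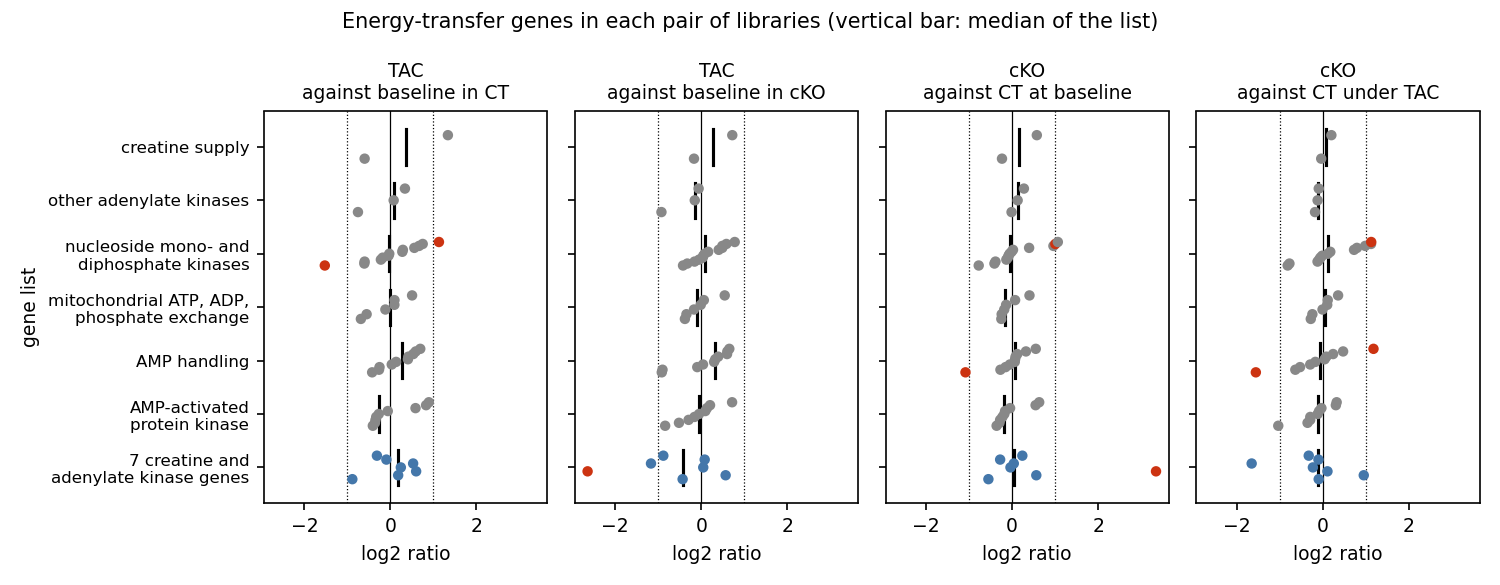
Log2 ratios of the 43 measured energy-transfer genes by list, and of the 7 creatine and adenylate kinase genes in the bottom row, for each pair of libraries, with black bars for medians, dotted lines at 2-fold and red points for genes at least 2-fold apart with an interval excluding 1. Most genes lie between the dotted lines, and Ckmt1 is the farthest point at baseline at 3.35.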

How the data were processed

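Total RNA was extracted from hearts with a column kit and libraries followed Illumina protocols, per the labels. CASAVA, HISAT2, edgeR and mm10 appear in the submitters' processing notes with neither versions nor roles. Which program counted reads, against which annotation and on which strand, is not given in the sources used here. Judged by their values, the authors' deposited numbers are log2 CPM, with an average of 1 read, scaled by library size, added to each gene. Reads were recovered from the fixed step between values in each library, and between 88.6% and 89.0% of genes came out whole (within 0.01). Rebuilding the deposited values from these reads left a largest error of 8.9e-16. No pair of libraries was alike within sampling noise, the chi-square divided by its degrees of freedom being 7.77 to 21.2.

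A gene passed in a pair when its deposited values were at least 2-fold apart and the Clopper-Pearson 95% interval of the ratio excluded 1. PCR copies are not independent molecules. All 12408 genes entered a limma model (limma 3.58.1 under R 4.3.3, trend option on) of the deposited log2 values with terms for genotype and surgery, 10.1 prior degrees of freedom and Benjamini-Hochberg adjustment. Tested on simulated data of 12408 genes, the genotype term recovered on average 97.3 of 100 genes set 4-fold apart, 31.7 of 100 set 2-fold apart, and 7.33 unchanged genes. The changes were planted only in genes with more reads on average than Ckmt1 and Gamt had. All genes shared the same noise setting, and none had an effect of surgery. The recovery may therefore not hold for the measured data. Genes other than the 7 are named where they passed in any pair, lead their list in abundance or lie among the 3 nearest in profile to a gene spanning at least 1 on the log2 scale. The values of 1 gene that this rule names are not reported here. Marker and motif lists were searched whole. The genes, lists and alternatives were chosen with earlier results of these data known. Exon lengths and positions are from GENCODE M21.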

Additional observations from a re-analysis of the deposited data

How the results depend on the processing

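Over the alternatives, 104 of 108 single-gene ratios between libraries stayed within their counting intervals. The other 4, Ckm and Ckmt2 in cKO against CT in either state, moved when scaled to total reads, which raised the median ratio of all genes by 0.09 (log2) in those pairs. That scaling turned 2 limma differences around 0, Ak1 for TAC (0.0024, adjusted p 0.986 to 0.997 over the alternatives) and Ak3 for the genotype (0.047, adjusted p 0.969 to 0.999), let Ckb pass under TAC (1 of 7 genes), and split the genes that passed into 492 higher and 171 lower at baseline, against 405 and 223, and 480 and 186 under TAC, against 364 and 259. Limma called none of the 7 genes under any of its alternatives. At 1.5-fold, Ckm passed for TAC in CT (1 of 7), Ckmt1 and Ak3 in cKO (2 of 7), Ckmt1 at baseline (1 of 7) and Ckb under TAC (1 of 7), among 2632 genes for TAC in CT, 1742 for TAC in cKO, 1341 at baseline and 1501 under TAC. With 5 reads added, 1 of 7 genes had TAC ratios at least 1 apart (an alternative chosen after seeing the data, with no share of all genes given). Genes called by limma for TAC numbered 226, with 99 when 5 reads were added, 20 without a genotype term and 0 without the trend (1544 at an unadjusted p under 0.05). For the genotype they numbered 3, with 5 by the median ratio, 9 at a mean of at least 5 CPM, 0 without the trend (840 unadjusted) and 0 without a surgery term (345 unadjusted). The cause was not tested. Per kilobase of coding sequence, the Ckm share of the creatine kinases was 53.2%, 34.2%, 44.1% and 36.0% in CT baseline, CT TAC, cKO baseline and the library labelled cKO TAC. No paired analysis was possible because each group holds 1 library and the labels carry no replicate numbers. Leaving out 1 library from the limma fit leaves no residual degree of freedom, and its estimate is then the remaining pair's own ratio.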
